A study of Nicotiana benthamiana with 12 samples.

Results

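Polysome RNA, the transcripts recovered together with ribosomes, was compared between leaves of Nicotiana benthamiana held at 37 °C for 1 h (heat) and leaves of plants kept at 23 °C (mock). The comparison takes in every gene with enough counts to be tested, 34325 of the 40763 genes in the deposited table. It uses 6 of the 12 libraries of the study, heat polysome libraries 5, 6 and 7 and mock polysome libraries 2, 3 and 4, numbered as in their titles. The other 6 libraries hold total RNA of the same treatments, and they enter where a heat effect is set against its counterpart in total RNA. All plants were 5 weeks old and carried no transgene or mutation that the labels name. The submitters call the 3 libraries of a group biological replicates, and how many plants went into a library is not stated in the labels. Nicotiana benthamiana is a tobacco relative widely used for transient expression. Its allotetraploid genome holds many near-identical gene pairs, so the value of a single copy can include reads of its twin and is uncertain to that extent.

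Polysomes form when several ribosomes translate the same mRNA, and a transcript's presence in the polysome fraction is widely used as a measure of its translation. Heat unfolds proteins and releases heat stress transcription factors from the chaperones that hold them. These factors then switch on chaperones: small heat shock proteins that bind unfolded chains, HSP70 with its DnaJ partners and HSP90 that refold them, and ClpB disaggregases that pull aggregates apart. In plants, heat is also known to lower overall translation and to favour heat shock mRNAs on ribosomes. A sequencing library shows shares of the recovered RNA, so the amount of polysomes itself was not measured here.

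Total counts were 11766622 to 14485118 per library in heat polysome RNA and 10945519 to 14474404 in mock polysome RNA. Leaf identity was clear in every polysome library: chlorophyll a-b binding proteins held 14.5 to 17.8% of counts after heat and 11.8 to 14.7% in mock. Replicates varied more than sampling noise allows in each pair, most of all in mock polysome RNA, where the chi-square per degree of freedom between library pairs was 18.58 to 34.89, against 2.57 to 12.98 among heat polysome libraries. Mock polysome library 2 stood apart with more ribosomal protein and histone RNA, and the counts of both lists are also given without it. Levels are CPM, counts scaled to a common library size, on sizes corrected by TMM, which assumes that most genes keep their relative level. The factors were 0.56 to 0.68 in heat polysome and 0.79 to 0.96 in mock polysome libraries. Scaled to library totals alone, the median gene shifted by -0.47 on the log2 scale. A change is therefore one relative to the bulk of genes, and lists whose direction turns under library totals are named as such. Changes are log2 fold changes of heat over mock with their standard error (SE), and a gene is called at an adjusted p under 0.05 from edgeR's quasi-likelihood test over all genes tested.

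Heat raised 28.1% and lowered 28.0% of the genes tested, and the calls became one-sided with size. Past a 16-fold change, 584 genes rose and 175 fell. Past a 64-fold change there were 178 rises and 9 falls, and past a 256-fold change 67 rises and 0 falls. Chaperone lists, which made up 568 of the 34325 genes tested, held 101 of the 584, 58 of the 178 and 46 of the 67. These counts were the same when genes with 1 group at the lowest count were set at the bound that 3 counts allow. The median of all genes tested was -0.06. With library totals alone, 5921 genes rose and 14908 fell, so 28.4% of calls were rises, against 50.1% with TMM.

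Heat stress transcription factors bind the promoters of chaperone genes. Of 37 tested, 22 rose and 3 fell, with a median change of 0.84. HSF A2, in Arabidopsis the factor that sustains the heat response, was the family member highest in CPM. That gene, Niben101Scf01777g02001.1, had 488, 578 and 623 CPM in heat polysome libraries, against 11.7, 6.42 and 6.38 CPM in mock polysome libraries. It rose by 6.11 (SE 0.24, adjusted p = 5.7e-12). HSF A-6b (Niben101Scf03923g03003.1) reached 158, 172 and 168 CPM after heat, against 2.09, 1.45 and 1.23 CPM in mock, a rise of 6.69 (SE 0.19, adjusted p = 2.5e-13). The 2 treatments were far apart for both genes, in every library. By type, 7 of 13 genes annotated A2, 3 of 4 annotated A3 and 6 of 9 annotated B4 rose, and 1 gene each of A2 and B4 fell. The 3 falls were a second A2 copy (Niben101Scf01372g07005.1, with a mean of 0.472 CPM after heat and 1.89 CPM in mock), a B-4b gene (Niben101Scf08191g00001.1, -1.90) and a C1 gene (Niben101Scf08341g10005.1, -0.43). The fall of the C1 gene was not called with the polysome libraries fitted alone (adjusted p = 0.053) or without heat polysome library 6 (adjusted p = 0.096).

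The multiprotein-bridging factor MBF1c is a transcriptional coactivator that Arabidopsis needs for full thermotolerance. Its gene Niben101Scf01587g01006.1 had 7853, 5948 and 6177 CPM in heat polysome RNA, against 4.28, 4.35 and 2.57 CPM in mock polysome RNA. The rise was 10.78 (SE 0.27, adjusted p = 6.6e-14). The MBF1 list as a whole held 0.460, 0.420 and 0.444% of heat polysome counts, against 0.0235, 0.0259 and 0.0186% in mock. Of 7 members tested, 4 rose and 0 fell, but with library totals alone 1 rose and 1 fell.

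Small heat shock proteins hold unfolded proteins in a state from which they can be refolded. Together they took 6.11, 5.81 and 5.95% of heat polysome counts, against 0.0685, 0.0966 and 0.0802% in mock polysome counts. The treatments did not overlap, and an exact two-sided permutation test gave p = 0.1, the smallest that 3 against 3 libraries allow. Every class II gene tested rose, 14 of 14, with a median of 11.01, and in class I 18 of 26 rose and 0 fell, with a median of 6.61. All 5 genes annotated as HSP21, the plastid form, rose with a median of 10.78, and 4 of 6 class IV genes rose with a median of 10.52. HSP21 gene Niben101Scf04091g00013.1 had 2943, 2154 and 2024 CPM in heat libraries and 0.381, 0.687 and 0.336 CPM in mock libraries, a change of 12.22 (SE 0.32, adjusted p = 9.9e-14).

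Several of these genes were close to absent from mock polysomes, so the fold is set by very few reads. Class IV gene Niben101Scf00705g04009.1 had 2385, 2273 and 2354 CPM after heat, against 0.190, 0.229 and 0.336 CPM in mock (change 13.16, SE 0.25, adjusted p = 1.2e-14). Class I gene Niben101Scf08549g00011.1 had 13025 reads above the lowest count over the 3 heat libraries and 0 over the 3 mock libraries, and was at least 5514-fold higher after heat. Class II gene Niben101Scf04040g09011.1 had 61606 such reads after heat and 1 in mock, a ratio of 78200 (95% counting interval 14000 to 3090000). Not all small heat shock proteins rose. The 2 class V genes both fell, and one of them, Niben101Scf03104g03020.1, had 14.3, 11.3 and 15.9 CPM after heat and 51.4, 44.1 and 48.2 CPM in mock (-1.79, SE 0.15, adjusted p = 5.2e-08). Of 13 genes with the looser annotation HSP20-like, 4 rose and 2 fell.

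**Figure D1:**
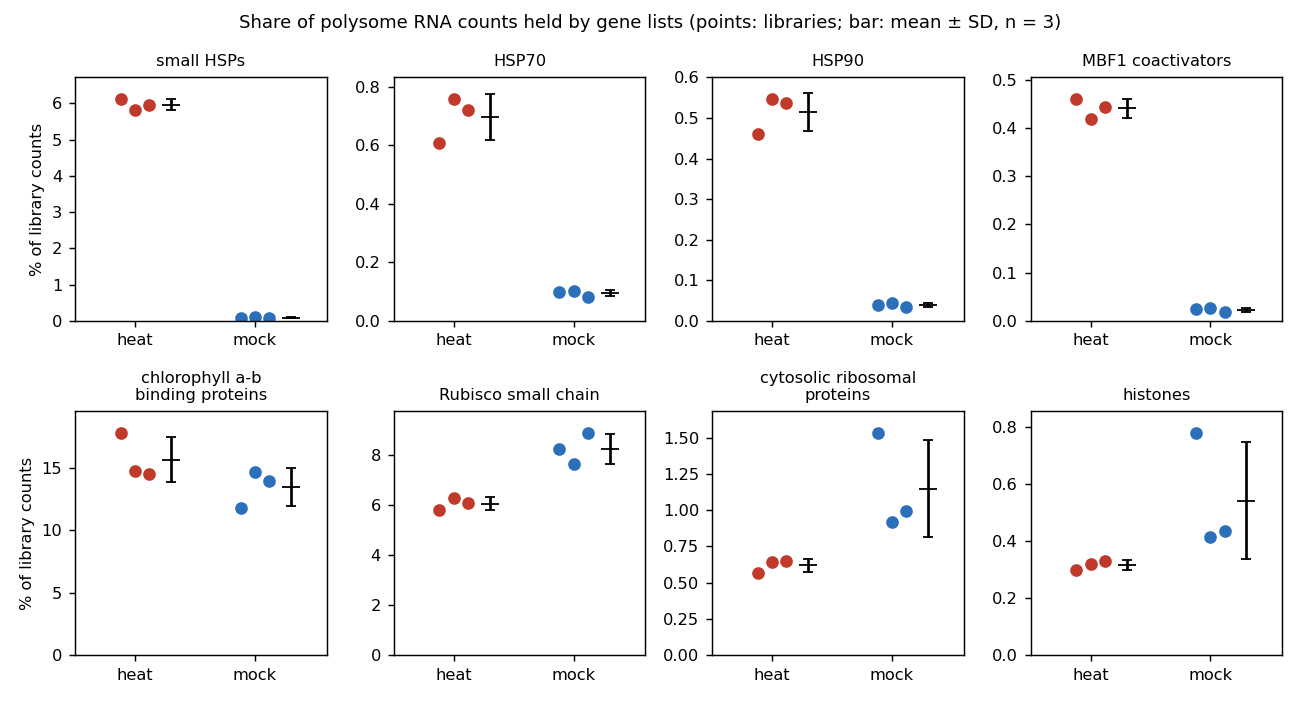
Share of each polysome library's counts, in percent, held by 8 gene lists, with heat libraries 5, 6 and 7 left of mock libraries 2, 3 and 4 in every panel (points are libraries, bars are mean ± SD, n = 3). Small heat shock proteins took 5.81 to 6.11% after heat and 0.0685 to 0.0966% in mock, while Rubisco small chains took 5.77 to 6.28% after heat and 7.62 to 8.85% in mock, and mock library 2 lies above the other mock libraries for ribosomal proteins and histones.

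The ATP-driven chaperones rose too, with smaller median folds than the class I and class II small heat shock proteins. HSP70, which binds and releases unfolded chains, rose in 47 of 58 genes and fell in 2, with a median of 2.89 (3.15 with genes of which 1 group was at the lowest count set at their bound, or left out where both groups lay under it). Its list held 0.607, 0.757 and 0.722% of heat polysome counts, against 0.0986, 0.102 and 0.0828% in mock. The member highest in CPM, Niben101Scf12154g01009.1, had 1759, 1528 and 1309 CPM after heat and 48.4, 54.5 and 47.9 CPM in mock (4.93, SE 0.17, adjusted p = 1.8e-12). A second HSP70 gene, Niben101Scf02124g01003.1, had 7981 reads above the lowest count in heat libraries and 1 in mock libraries, a ratio of 10100 (95% counting interval 1820 to 400000). Of the 2 HSP70 genes that fell, Niben101Scf04126g01011.1 had the smaller adjusted p and fell by 2.47 (SE 0.26, adjusted p = 9.5e-07).

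HSP90 chaperones mature signalling proteins and, in plants, restrain heat stress factors. Of 23 genes annotated as HtpG or endoplasmin, 18 rose and 1 fell, with a median of 3.51. The gene Niben101Scf04847g03018.1 had 2030.2, 1906 and 1819 CPM after heat, against 23.7, 15.8 and 18.7 CPM in mock (6.63, SE 0.21, adjusted p = 5.8e-13). ClpB, the disaggregase, rose in 12 of 22 genes and fell in 4. The ClpB gene with the smallest adjusted p among the rises, Niben101Scf15972g01024.1, had 328, 404 and 412 CPM in heat libraries and 0.856, 0.611 and 0.560 CPM in mock libraries (9.12, SE 0.25, adjusted p = 1.6e-13). Another, Niben101Scf02034g02001.1, had 2.46, 6.33 and 7.97 CPM after heat and 52.3, 49.7 and 38.4 CPM in mock, and fell by 3.06 (SE 0.27, adjusted p = 1.2e-07). The ClpB annotation thus covers copies that moved in opposite directions.

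DnaJ and BAG co-chaperones were more divided than HSP70, which they serve, unlike the smaller Fes1 and Aha1 types. All 4 tested Fes1 genes rose, and of 5 Aha1 genes 4 rose and 0 fell. Among DnaJ proteins, which hand substrates to HSP70, 101 of 216 rose and 40 fell, with a median of 0.52; with library totals alone 73 rose and 68 fell. The DnaJ gene highest in CPM, Niben101Scf03817g16010.1, had 1546, 1496 and 1534 CPM after heat and 2.19, 2.21 and 1.68 CPM in mock (9.54, SE 0.20, adjusted p = 1.5e-14). All 6 tested BAG6 genes, a calmodulin-binding group of HSP70 regulators, rose with a median of 6.38, while the 23 BAG genes as a whole had a median of 0.09, with 10 rises and 4 falls. BAG6 gene Niben101Scf04537g01009.1 had 1386, 1849.6 and 1874 CPM in heat libraries and 13.5, 17.3 and 13.3 CPM in mock libraries. A second BAG6 gene, Niben101Scf02175g06018.1, had 0 reads above the lowest count in mock and was at least 900.5-fold higher after heat.

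Chaperonins enclose proteins as they fold. All 10 tested 10 kDa chaperonins of plastid and mitochondrial type rose, with a median of 2.70, and among 60 kDa chaperonins 10 of 19 rose and 5 fell. The cytosolic T-complex gave 4 rises and 5 falls among 25 genes, with a median of 0.05. The 10 kDa chaperonin Niben101Scf08651g04006.1 had 1398, 1171 and 1112 CPM after heat and 88.7, 67.1 and 88.2 CPM in mock (3.92, SE 0.21, adjusted p = 2.8e-10). A 60 kDa chaperonin, Niben101Scf03197g06003.1, rose by 5.65 (SE 0.20, adjusted p = 2.5e-12). A peptidyl-prolyl isomerase annotated D, of the enzymes that turn proline bonds during folding, had 1461, 1857 and 1983 CPM after heat and 27.1, 26.5 and 24.6 CPM in mock (Niben101Scf02756g00004.1, 6.08, SE 0.19, adjusted p = 5.5e-13).

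Folding genes of the endoplasmic reticulum rose as well, 21 of 33, with 1 fall. All 10 tested calnexin and calreticulin genes, lectin chaperones of glycoproteins, rose with a median of 2.97, and 11 of 23 protein disulfide isomerases rose with 1 fall. Calreticulin-3 (Niben101Scf04375g04006.1) had 297, 339.9 and 339 CPM after heat and 13.7, 13.3 and 8.51 CPM in mock (4.77, SE 0.19, adjusted p = 8.1e-12). A calnexin gene (Niben101Scf01596g12004.1) had 114, 126 and 124 CPM after heat and 5.71, 4.66 and 6.60 CPM in mock (4.43, SE 0.16, adjusted p = 3.1e-12).

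**Figure D2:**
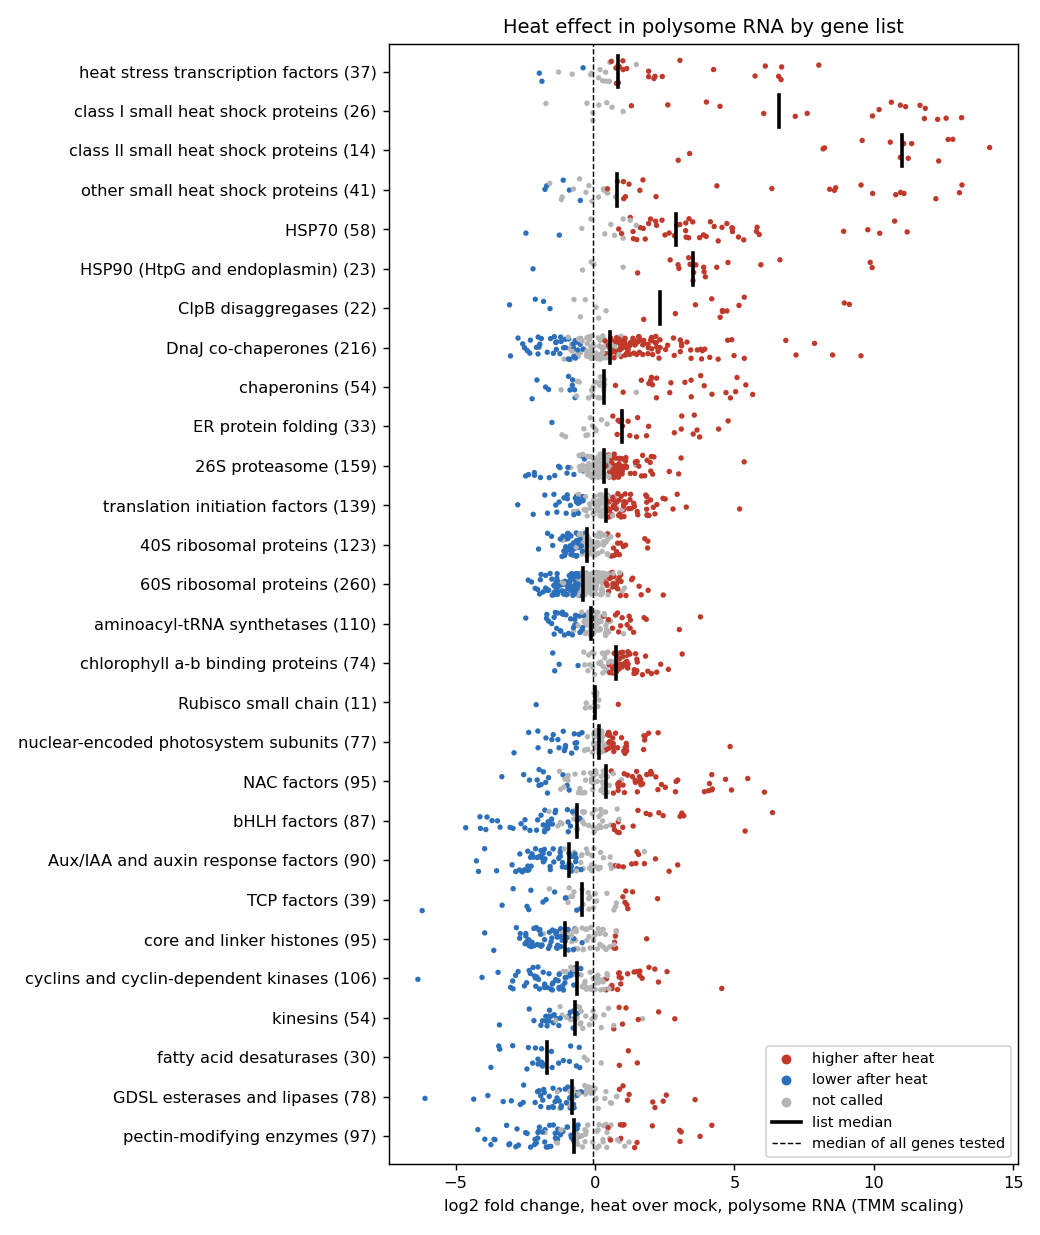
Log2 fold change of heat over mock in polysome RNA for every tested gene of 28 lists (number of genes in brackets), with called rises, called falls and uncalled genes in separate colours, the list median as a black bar and the median of all genes tested, -0.06, as a dashed line. Class II small heat shock proteins lie furthest to the right with a median of 11.01, and desaturases lie furthest to the left with a median of -1.72.

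The largest rises outside the chaperone lists were named by size of change among well-counted genes whose treatments did not overlap. A nucleobase-ascorbate transporter (Niben101Scf01494g01007.1) had 135, 178 and 175 CPM after heat and 0.0951, 0.153 and 0.112 CPM in mock. That is 4184 reads above the lowest count against 1, a ratio of 5310 (95% counting interval 953 to 210000). An F-box gene (Niben101Scf08963g00004.1), whose protein class selects targets for ubiquitin ligases, had a ratio of 3010 (833 to 24900). A gene annotated with a phosphosulfolactate synthase of a bacterium (Niben101Scf00176g05008.1) had 172, 102 and 92.4 CPM after heat and 0.0951, 0.229 and 0.112 CPM in mock, a ratio of 1970 (545 to 16300). The heat-induced protein HSA32 of Arabidopsis resembles this enzyme.

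Aluminum-activated malate transporter 10 (Niben101Scf01214g01004.1), of an anion channel family, and aquaporin PIP2-7 (Niben101Scf03947g00005.1), a water channel, had 0 reads above the lowest count in all 3 mock libraries. They were at least 609-fold and at least 537-fold higher after heat. The MADS-box gene Niben101Scf01310g04010.1, of a family of developmental regulators, was at least 379-fold higher. The ethylene response factor ERF1B (Niben101Scf07761g02006.1) had 1450 reads above the lowest count after heat and 2 in mock, a ratio of 921 (254 to 7610).

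A universal stress protein A-like gene (Niben101Scf20035g00003.1) had 988, 1146 and 1167 CPM after heat, against 1.24, 0.916 and 4.81 CPM in mock (8.97, SE 0.44, adjusted p = 1.1e-10). Glutathione S-transferase 3 (Niben101Scf02971g01005.1), a detoxifying enzyme, had 186, 177 and 186 CPM after heat and 0.190, 0.687 and 0.224 CPM in mock (8.82, SE 0.26, adjusted p = 2.5e-13). A FAM32A-like gene (Niben101Scf04748g00003.1) had 492, 582 and 619.9 CPM after heat and 2.09, 1.45 and 1.46 CPM in mock (8.40, SE 0.23, adjusted p = 1.6e-13). Treatments that did not overlap were a condition of naming these genes, and 57.8% of all genes tested met it.

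**Figure D3:**
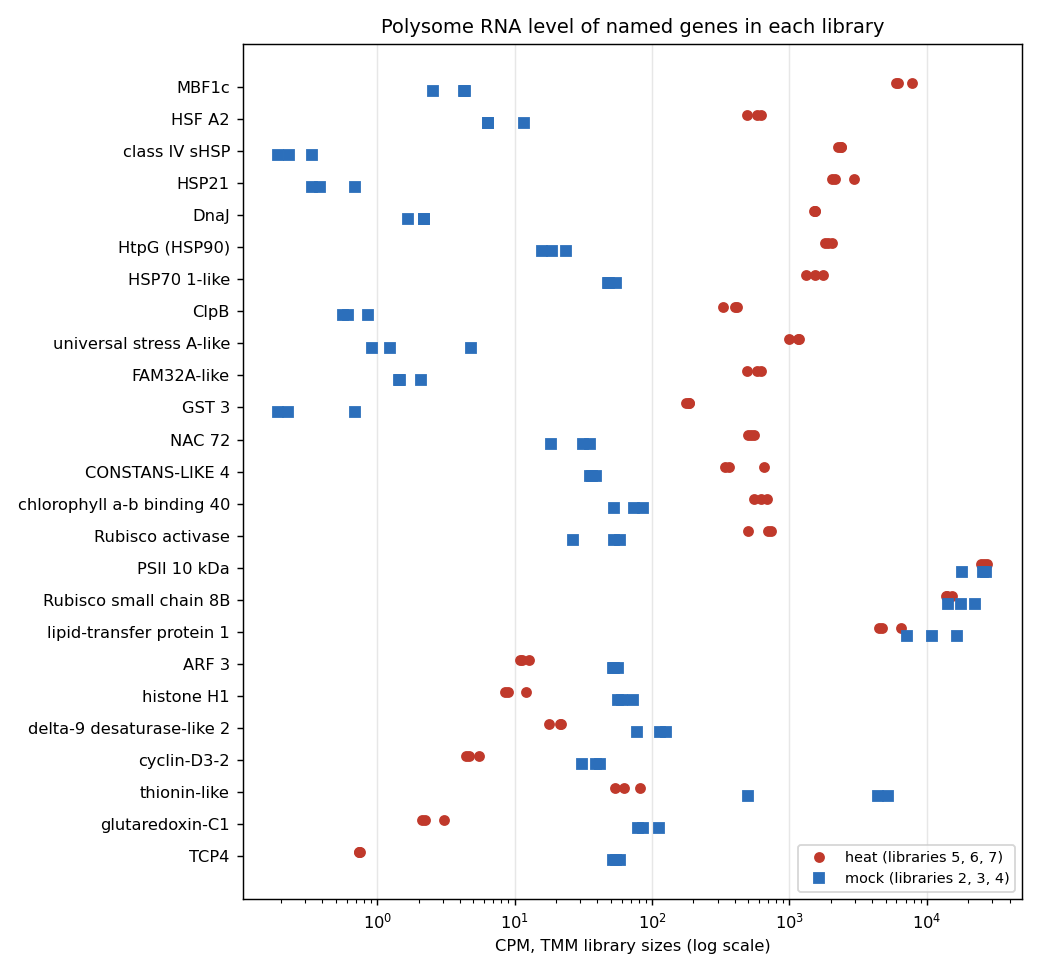
Level of 25 named genes in each polysome library, in CPM on TMM library sizes on a log axis, with heat libraries (circles) above mock libraries (squares) in each row. Chaperone and regulator genes at the top are separated by a wide gap, the photosystem II 10 kDa and Rubisco small chain genes overlap between treatments, and the genes at the bottom lie lower after heat, where the thionin-like gene spreads from 503 to 5210.1 CPM across mock libraries.

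Protein removal and RNA processing moved less. In the proteasome, which degrades ubiquitin-tagged proteins, 65 of 159 genes rose and 15 fell, with a median of 0.32, but with library totals alone 31 rose and 42 fell, so the list's direction depends on the scaling. U-box ubiquitin ligases gave 43 rises and 16 falls among 94 genes, and 28 against 24 with library totals. The U-box gene Niben101Scf08447g09009.1 had 152, 148 and 152 CPM after heat and 9.80, 6.03 and 8.17 CPM in mock (4.24, SE 0.20, adjusted p = 7.3e-11). The proteasome regulatory subunit 4 gene Niben101Scf02315g01009.1 rose by 3.09 (SE 0.21, adjusted p = 6.2e-09) and the ubiquitin-conjugating enzyme 13 gene Niben101Scf07650g03017.1 by 2.58 (SE 0.14, adjusted p = 2.8e-10). These 3 members rose far beyond their lists' medians.

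Pre-mRNA splicing factors rose in 28.8% and fell in 25.3% of 198 genes, near the 28.1% and 28.0% of all genes tested. The list had 57 rises and 50 falls and a median of 0.04 (30 rises and 84 falls with library totals). Within it, 2 serine/arginine-rich factors, which choose splice sites, rose strongly. SR-type factor 12 (Niben101Scf04422g03014.1) had 189, 136 and 123 CPM after heat and 0.476, 0.840 and 0.560 CPM in mock (7.84, SE 0.26, adjusted p = 8.3e-13). Factor 9 (Niben101Scf00154g05017.1) had 398, 253 and 268 CPM after heat and 4.28, 2.60 and 2.24 CPM in mock (6.65, SE 0.27, adjusted p = 9.4e-12). The fall with the smallest adjusted p was a gene annotated splicing factor SF2. Its means were 4.36 CPM after heat and 13.1 CPM in mock (-1.59, SE 0.17, adjusted p = 1.3e-06).

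Cytosolic ribosomal proteins fell in 147 of 383 genes and rose in 42, with a median of -0.37, a balance that rested in part on mock polysome library 2. Without it, 102 of 386 fell (26.4%, against 25.7% of all genes tested in that fit) and 53 rose, with a median of -0.19, and the difference in share was -0.337 percentage points, against -0.527 with it. They took 0.566, 0.643 and 0.648% of heat polysome counts, against 1.53, 0.916 and 0.996% in mock, where library 2 was highest. The 60S gene with the smallest adjusted p among the falls, L37a (Niben101Scf01745g05010.1), had 37.6, 39.9 and 43.9 CPM after heat and 123, 84.0 and 111 CPM in mock (-1.39, SE 0.15, adjusted p = 1.4e-06). An L18a-like gene, Niben101Scf07728g00001.1, had 48.2, 36.5 and 37.1 CPM after heat and 8.28, 6.49 and 7.61 CPM in mock, and rose by 2.45 (SE 0.16, adjusted p = 3.7e-09). With library totals alone, 14 ribosomal protein genes rose and 253 fell.

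Initiation factors, which load ribosomes onto mRNA, had 60 rises and 23 falls among 139 genes and a median of 0.39. That direction depends on the scaling, since library totals gave 32 rises and 35 falls. By type, eIF4E cap-binding genes gave 6 rises and 0 falls among 10, eIF4G scaffold genes 6 and 2 among 9, and eIF5A genes 4 and 4 among 10. The eIF5A gene Niben101Scf03166g00008.1, the list's highest in CPM, had 583, 454 and 419 CPM after heat and 177, 229 and 226 CPM in mock (1.20, SE 0.16, adjusted p = 8.7e-06). Elongation and release factors had 29 rises and 30 falls among 104 genes, shares near those of all genes tested, and 14 rises and 54 falls with library totals. Elongation factor G 1 (Niben101Scf04779g01006.1), a translocase of the bacterial type, fell to 15.5, 16.7 and 19.4 CPM after heat, against 64.3, 78.6 and 80.8 CPM in mock (-2.12, SE 0.15, adjusted p = 7.2e-09). Aminoacyl-tRNA synthetases, which charge tRNAs, had 31 falls and 17 rises among 110 genes, a share of falls near that of all genes tested, and 57 falls and 10 rises with library totals. The alanine enzyme (Niben101Scf03913g01042.1) fell by 1.18 (SE 0.13, adjusted p = 1.3e-06).

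Photosynthesis lists differed in direction, in part with the scaling. Chlorophyll a-b binding proteins, the light-harvesting antenna, rose in 44 of 74 genes and fell in 4, with a median of 0.74, and with library totals 34 rose and 13 fell. Their share of counts was 17.8, 14.8 and 14.5% after heat and 11.8, 14.7 and 14.0% in mock; the treatments overlapped, and the exact permutation p was 0.2. Antenna gene 40 (Niben101Scf01020g00011.1) had 687, 621 and 548 CPM after heat and 86.1, 52.8 and 73.9 CPM in mock (3.13, SE 0.19, adjusted p = 1.3e-09). Antenna gene 50 (Niben101Ctg16374g00003.1) fell to 1782, 1366 and 1314 CPM after heat, against 3732, 4551 and 4457 CPM in mock (-1.51, SE 0.17, adjusted p = 1.3e-06). The antenna gene highest in CPM, annotated 37 (Niben101Scf02852g02007.1), rose by 0.99 (SE 0.24, adjusted p = 0.0027), with heat library 5 at 24091 CPM far above heat libraries 6 and 7 at 14984 and 14601 CPM.

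Photosystem subunits encoded in the nucleus gave 30 rises and 21 falls among 77 genes, a balance that turned to 15 rises and 35 falls with library totals. Photosystem I subunits rose in 19 of 27 and fell in 2, while photosystem II subunits and oxygen-evolving proteins rose in 9 of 43 and fell in 16. The oxygen-evolving protein 3-1 gene Niben101Scf00578g00008.1 had 34.6, 30.1 and 26.6 CPM after heat and 116, 115 and 145 CPM in mock (-2.04, SE 0.15, adjusted p = 1.6e-08). The photosystem II 10 kDa gene Niben101Scf01116g01004.1, among the genes highest in CPM in both treatments, had 27362, 24670.4 and 26133 CPM after heat and 18002, 25786 and 26904 CPM in mock, and was not called (0.14, SE 0.19, adjusted p = 0.54).

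For Rubisco, which fixes carbon dioxide, the picture depends on the scale. Small chain genes took 5.77, 6.28 and 6.07% of heat polysome counts, against 8.21, 7.62 and 8.85% in mock, with no overlap (exact permutation p = 0.1). On the TMM scale their median change was 0.02, with 1 rise and 1 fall among 11 genes, and library totals gave 1 rise and 10 falls. The copy Niben101Scf04196g00003.1 had 15293, 13688 and 13903 CPM after heat and 17635, 14325 and 22547 CPM in mock (-0.35, SE 0.19, adjusted p = 0.13). Rubisco activase, the heat-sensitive chaperone that keeps Rubisco working, had 4 rises and 0 falls among 7 genes, and 3 of each with library totals. Activase gene Niben101Scf28395g00001.1 had 498, 700.2 and 729.5 CPM after heat and 26.8, 58.7 and 52.5 CPM in mock (3.80, SE 0.26, adjusted p = 4.6e-09). The activase gene with the most CPM, Niben101Scf05368g03015.1, overlapped between treatments at 1062, 826 and 756 CPM after heat and 595, 1239.9 and 1203 CPM in mock (-0.20, adjusted p = 0.48).

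Protective genes outside the chaperones rose in part. Superoxide dismutases and enzymes of the ascorbate-glutathione cycle, which clear reactive oxygen, gave 19 rises and 6 falls among 42 genes, and library totals gave 12 and 14. Ascorbate peroxidase 2 (Niben101Scf07050g00006.1) had 777, 554 and 523 CPM after heat and 22.5, 34.2 and 39.0 CPM in mock (4.28, SE 0.23, adjusted p = 3.3e-10). The fall with the smallest adjusted p in this list was a superoxide dismutase. It had 6.76, 5.60 and 5.35 CPM after heat and 53.6, 29.1 and 205 CPM in mock (-4.02, SE 0.54, adjusted p = 1.3e-05). Of 8 catalases tested, 4 rose and 1 fell. A catalase (Niben101Ctg10591g00003.1) had 83.4, 61.7 and 53.8 CPM after heat and 3.71, 5.04 and 5.04 CPM in mock (3.85, SE 0.21, adjusted p = 3.2e-10). The catalase highest in CPM overlapped between treatments, with means of 332 CPM after heat and 277 CPM in mock. It was not called (0.26, SE 0.16, adjusted p = 0.18).

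Of 3 genes tested for galactinol and raffinose synthesis, 2 rose, both annotated as galactinol synthase, which starts the raffinose sugars. The one highest in CPM, Niben101Scf06412g03018.1, had 7.38, 7.81 and 6.85 CPM after heat and 0.381, 0.0764 and 0.224 CPM in mock, which is low in absolute terms (5.02, SE 0.45, adjusted p = 1.5e-07). Trehalose synthesis genes rose in 14 of 26 and fell in 9, and library totals gave 12 rises and 10 falls. A trehalose phosphate synthase (Niben101Scf06275g00008.1) averaged 182 ± 14.7 CPM after heat and 7.05 ± 3.28 CPM in mock (SD, n = 3 each), a rise called by edgeR (4.67, SE 0.34, adjusted p = 1.0e-08). The list's fall with the smallest adjusted p was -2.09 (SE 0.24, adjusted p = 2.5e-06). Late embryogenesis abundant and dehydrin genes rose in 19 of 49 and fell in 14, a balance that turned to 14 rises and 17 falls with library totals. A dehydrin (Niben101Scf05385g04007.1), a hydrophilic protein of dehydrated tissue, had 523, 651 and 669.8 CPM after heat and 57.7, 67.1 and 62.8 CPM in mock (3.30, SE 0.16, adjusted p = 7.7e-11). The list's fall with the smallest adjusted p was -4.33 (SE 0.59, adjusted p = 1.3e-05), at means of 0.276 CPM after heat and 5.70 CPM in mock.

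Transcription factor families went different ways. NAC factors rose in 42 of 95 genes and fell in 14, and ethylene response factors rose in 69 of 149 and fell in 38. Library totals kept more rises than falls in both, at 34 against 23 for NAC factors and 52 against 48 for ethylene response factors, though the medians of 0.41 and 0.38 became -0.08 and -0.10. NAC 72 (Niben101Scf14516g00019.1), an abscisic acid-responsive factor in Arabidopsis, had 497, 522 and 550.3 CPM after heat and 18.3, 31.6 and 35.1 CPM in mock (4.21, SE 0.25, adjusted p = 9.1e-10). In contrast, bHLH factors fell in 38 of 87 genes and rose in 17, with a median of -0.64. The gene bHLH14 (Niben101Scf18066g00001.1), a repressor of jasmonate responses in Arabidopsis, fell to 7.99, 8.45 and 8.34 CPM after heat, against 59.9, 50.6 and 79.6 CPM in mock (-2.94, SE 0.18, adjusted p = 1.7e-09).

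Clock and light signalling genes fell in 36 of 80 and rose in 15. The clock repressor PRR5 (Niben101Scf11670g02004.1) had 2.34, 4.43 and 4.48 CPM after heat and 46.9, 40.6 and 40.9 CPM in mock (-3.50, SE 0.20, adjusted p = 5.6e-10). Among 11 pseudo-response regulators, 5 fell and 0 rose. CONSTANS-LIKE 4 (Niben101Scf02868g02003.1) went up, with 651, 363 and 339 CPM after heat and 36.7, 39.3 and 35.1 CPM in mock (3.60, SE 0.23, adjusted p = 2.1e-09).

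Auxin signalling genes fell in polysome RNA. Aux/IAA repressors and auxin response factors (ARFs), the switch of auxin signalling, fell in 52 of 90 genes and rose in 11, with a median of -0.93. In total RNA the list's median was -1.03, and the heat effect was higher in polysome RNA for 10 genes and lower for 10. ARFs fell in 34 of 50 and Aux/IAA genes in 18 of 40. ARF 3 (Niben101Scf03169g06001.1), which sets leaf polarity in Arabidopsis, had 10.9, 11.4 and 12.7 CPM after heat and 56.1, 53.2 and 52.1 CPM in mock (-2.20, SE 0.13, adjusted p = 1.2e-09). IAA7 (Niben101Scf02635g00003.1) had 144, 133 and 132 CPM after heat and 332, 205 and 202 CPM in mock (-0.85, SE 0.17, adjusted p = 0.00065).

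Histones fell in 52 of 95 genes and rose in 6, with a median of -1.07. Without mock polysome library 2, which held 0.777% of its counts in histones against 0.412 and 0.433% in mock libraries 3 and 4, the number of falls was 33 and of rises 14, with a median of -0.52. H3 genes fell in 13 of 20, H4 genes in 13 of 17 and linker H1 genes in 9 of 13, with 0 rises in each. A histone H1 gene (Niben101Scf04361g01001.1) had 12.1, 8.97 and 8.47 CPM after heat and 72.3, 60.2 and 56.4 CPM in mock (-2.68, SE 0.17, adjusted p = 3.0e-09). The H2B gene with the most CPM, Niben101Scf02182g02007.1, was instead called higher (0.70, SE 0.24, adjusted p = 0.019), a call lost in several other settings, with adjusted p = 0.49 under library totals.

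Cyclins and their kinases fell in 49 of 106 genes and rose in 22. The D-type cyclins, which admit cells to division, fell in 13 of 18 and rose in 1, with a median of -2.13. Cyclin-D3-2 (Niben101Scf03713g00001.1) had 4.67, 4.43 and 5.48 CPM after heat and 41.8, 30.9 and 39.2 CPM in mock (-2.94, SE 0.21, adjusted p = 1.0e-08). The list's member highest in CPM, a regulatory subunit of cyclin-dependent kinases, instead rose by 0.41 (SE 0.13, adjusted p = 0.011). Kinesins, motors of the mitotic spindle and of microtubule transport, fell in 23 of 54 genes and rose in 7. Kinesin-related gene Niben101Scf05711g04009.1 fell by 1.46 (SE 0.15, adjusted p = 8.7e-07). The kinesin highest in CPM was instead called higher, by 0.68 (SE 0.22, adjusted p = 0.017), though its treatments overlapped.

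Fatty acid desaturases, which add double bonds to membrane lipids, had the lowest median of the lists with 20 or more tested genes, -1.72. Of 30 genes, 24 fell and 3 rose, and with library totals 26 fell and 2 rose. All 7 chloroplastic omega-3 desaturases fell, with a median of -1.30, and 8 of 10 genes annotated as desaturase 2 fell. Of 5 stearoyl desaturases 2 rose and 1 fell. The list's rise with the smallest adjusted p was of this type (1.20, SE 0.15, adjusted p = 8e-06). The delta-9 desaturase-like gene Niben101Scf06091g07004.1 had 21.9, 21.3 and 17.9 CPM after heat and 115, 77.7 and 127 CPM in mock (-2.39, SE 0.19, adjusted p = 3.7e-08). The omega-3 gene Niben101Scf00318g10005.1, highest in CPM, had 219, 199 and 219 CPM after heat and 279, 277 and 386 CPM in mock (-0.56, SE 0.15, adjusted p = 0.0043).

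Wall and surface genes were mixed. Pectin-modifying enzymes fell in 47 of 97 genes and rose in 14, and GDSL esterases fell in 37 of 78 and rose in 9. Xyloglucan endotransglucosylases, which rejoin wall chains, rose in 21 of 36 genes and fell in 5, whereas expansins, which loosen walls, fell in 14 of 32 and rose in 8. Expansin-like A1 (Niben101Scf08047g01012.1) had 75.4, 105 and 114 CPM after heat and 6.66, 6.19 and 8.40 CPM in mock (3.80, SE 0.18, adjusted p = 8.7e-11). Expansin-A4 (Niben101Scf20887g00008.1) had 8.12, 5.70 and 6.85 CPM after heat and 56.0, 26.4 and 73.7 CPM in mock (-2.92, SE 0.31, adjusted p = 8.4e-07). Lipid-transfer proteins had 11 rises and 17 falls among 62 genes, no larger a share of falls than all genes tested. They held 0.538, 0.482 and 0.502% of heat polysome counts, against 1.46, 0.800 and 1.53% in mock, most of it from 1 gene, and without that gene the treatments overlapped at 0.176 to 0.182% after heat and 0.154 to 0.426% in mock. That gene, lipid-transfer protein 1 (Niben101Scf29144g00011.1), fell to 6436, 4483 and 4709.8 CPM after heat, against 10813, 7144 and 16547 CPM in mock (-1.14, SE 0.25, adjusted p = 0.0012).

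The largest falls outside the chaperone lists were named by the same rule as the rises. TCP4 (Niben101Scf08142g03005.1), which ends cell division in leaves, had 0.738, 0.739 and 0.747 CPM after heat and 51.9, 54.8 and 58.3 CPM in mock (-6.20, SE 0.23). A GDSL esterase (Niben101Scf08777g02002.1, -6.10), a GASA peptide (Niben101Scf01578g00012.1, -6.01), cytosolic sulfotransferase 17 (Niben101Scf01143g02025.1, -6.01), an inhibitor of fructosidase (Niben101Scf00618g05002.1, -5.81) and a pentatricopeptide repeat protein (Niben101Scf05712g03007.1, -5.60) fell to under 1 CPM in every heat library.

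Glutaredoxin-C1 (Niben101Scf20325g00012.1) had 3.07, 2.22 and 2.12 CPM after heat and 112, 79.4 and 85.9 CPM in mock (-5.22, SE 0.20, adjusted p = 4.7e-12). Phospholipase C 2 (Niben101Scf02269g00011.1), which makes lipid second messengers, had 0.738, 1.90 and 1.12 CPM after heat and 50.3, 54.8 and 52.4 CPM in mock (-5.35, SE 0.37, adjusted p = 7.1e-09). Endoglucanase 6 (Niben101Scf04160g01002.1) had 1.35, 2.01 and 2.37 CPM after heat and 82.4, 36.7 and 75.0 CPM in mock (-5.07, SE 0.33, adjusted p = 3.3e-09). That the treatments did not overlap in these 3 genes was again a condition of naming them.

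For 3 further genes of the same selection the mock libraries themselves differed widely. The thionin-like gene Niben101Scf09993g00001.1 had 81.2, 53.8 and 62.4 CPM after heat and 4417, 503 and 5210.1 CPM in mock (-5.68, SE 0.60, adjusted p = 8.8e-07). A defensin-like gene (Niben101Scf06275g03004.1) had 3.07, 2.85 and 3.11 CPM after heat and 75.0, 28.7 and 197 CPM in mock (-5.05, SE 0.57, adjusted p = 2.0e-06). MLP-like protein 423 (Niben101Scf05106g00003.1) had 0.984, 0.633 and 1.37 CPM after heat and 87.1, 9.32 and 19.9 CPM in mock (-5.29, SE 0.86, adjusted p = 8.0e-05). Mock library 3 was the lowest mock library for each of them.

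Markers of other leaf cell types were followed alongside. Vascular genes held 0.0369, 0.0504 and 0.0569% of counts after heat and 0.0842, 0.124 and 0.108% in mock, without overlap; 5 of 33 tested genes rose and 7 fell, smaller shares than of all genes tested. In total RNA the list held 0.0469 to 0.0492% after heat and 0.0375 to 0.0418% in mock. Most of the polysome share came from 1 gene, and without it the list held 0.0109 to 0.0193% after heat and 0.0106 to 0.0208% in mock, which overlapped. That phloem-specific protein gene (Niben101Scf02625g05002.1) had 463, 486 and 551 CPM after heat and 660.3, 1257 and 1195 CPM in mock (-1.05, SE 0.26, adjusted p = 0.0025). Epidermis and cuticle genes held 0.0216 to 0.0232% after heat and 0.0236 to 0.0353% in mock, and floral and meristem genes 0.0601 to 0.0847% after heat and 0.0617 to 0.0796% in mock. The part of such cells in the results was not tested, and fewer cells of a type cannot be told apart from less RNA per cell in bulk leaf material.

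The heat effect in polysome RNA was next set against that in total RNA, with the difference tested for each gene in the same fit. A change in polysome RNA alone does not tell whether total RNA changed as well. Of genes called in both fractions, 12284 changed in the same direction and 622 in opposite directions. The effect was higher in polysome RNA for 10.2% of genes tested and lower for 8.42%. Leaving out mock total libraries 6 and 7, in which plastid-type transcripts held 1.45 and 1.44% of counts against 0.0936% in mock total library 5, reduced these numbers to 1374 and 1060 genes, against 3502 and 2891. Among antenna genes, 41 of 74 were higher in polysome RNA and 0 lower, and without the 2 libraries 23 and 0. Their median change was 0.74 in polysome RNA and -0.14 in total RNA. Histones, which fell in both, had medians of -1.07 in polysome RNA and -1.67 in total RNA, with 23 genes higher and 0 lower, but 3 higher without the 2 libraries, where the median difference was 0.37, against 0.65 with them.

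Chaperone lists differed in which fraction had the larger effect. For all genes tested, 10.2% were higher and 8.42% lower in polysome RNA. HSP70 had 3 higher and 5 lower of 58 genes, other small heat shock proteins 5 and 0 of 41, and ER folding genes 1 and 7 of 33. Class I small heat shock proteins had 8 of 26 genes higher and 0 lower in polysome RNA, whereas HSP90 had 0 higher and 8 lower of 23, and 0 of either without the 2 libraries, although the median difference was as large, at -0.61 without them and -0.52 with them. For class I small heat shock proteins the median difference was 0.96 without the 2 libraries and 1.13 with them. HSP90 medians were 3.51 in polysome and 3.87 in total RNA. Kinesins gave 0 higher and 13 lower of 54, with medians of -0.73 in polysome and 0.03 in total RNA, and 4 lower without the 2 libraries, with a median difference of -0.49 without them and -0.40 with them. Aminoacyl-tRNA synthetases gave 5 higher and 23 lower of 110, and 2 and 10 without the 2 libraries, with median differences of -0.26 without them and -0.25 with them. Plastid-type transcripts, for which those 2 mock libraries are high, had medians of -1.10 in polysome and -4.04 in total RNA. Their median difference was 2.90, and it was -0.32 without the 2 libraries.

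**Figure D4:**
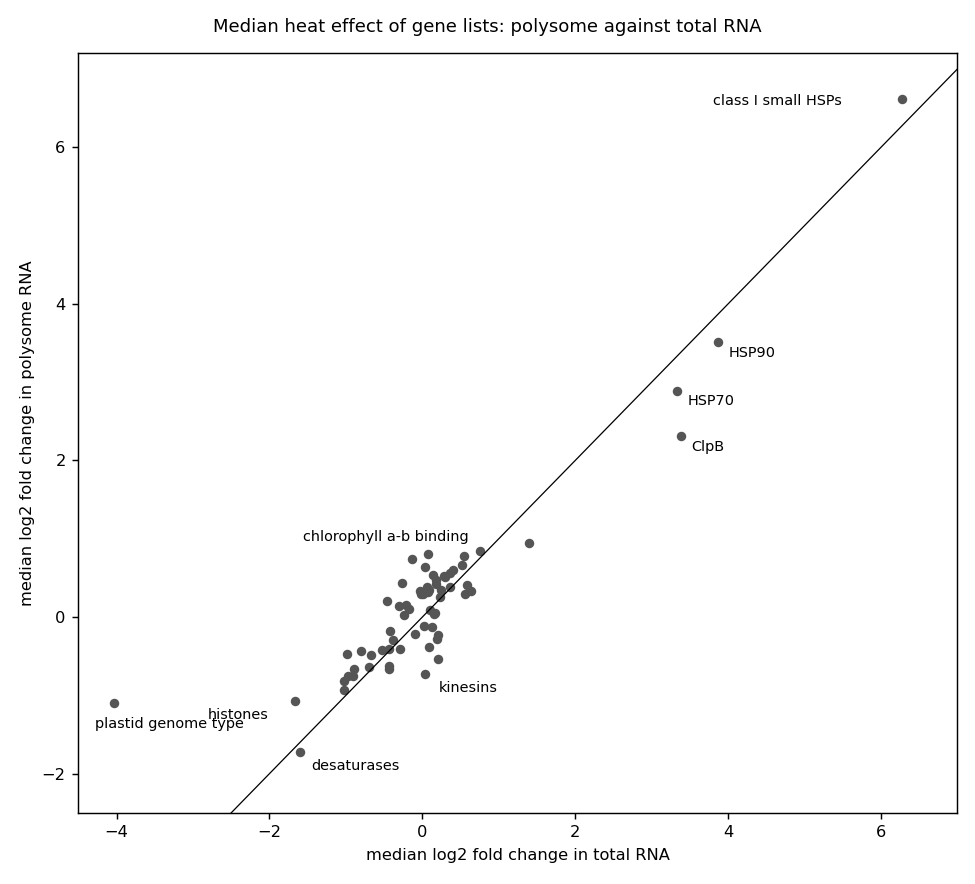
Median log2 fold change of heat over mock in polysome RNA (vertical axis) against that in total RNA (horizontal axis) for each list with 20 or more tested genes (points), with the line of equal change. Antenna genes lie above the line at 0.74 against -0.14, HSP90 and kinesins lie below it at 3.51 against 3.87 and -0.73 against 0.03, and the plastid-type point rests on mock total libraries 6 and 7.

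Genes with the largest differences were named if the call held without mock total libraries 6 and 7. GTPase Der (Niben101Scf39490g00008.1), of a family of ribosome-assembly GTPases in bacteria, had 11.4, 10.3 and 6.97 CPM in heat polysome RNA and 0.285, 0.305 and 0.336 CPM in mock polysome RNA. Its change was 4.92 in polysome and 0.50 in total RNA, a difference of 4.42 (SE 0.35, adjusted p = 2.2e-05). Alcohol dehydrogenase 2 (Niben101Scf19980g00001.1), an enzyme of fermentation, changed by 4.56 in polysome and 0.29 in total RNA, a difference of 4.27 (SE 0.41). A pyridoxal biosynthesis lyase of the vitamin B6 pathway (Niben101Scf05044g04010.1) differed by 4.05, sulfate adenylyltransferase (Niben101Scf00594g07001.1), the entry enzyme of sulfate assimilation, by 4.01, calcineurin B-like protein 10 (Niben101Scf00270g01015.1), a calcium sensor, by 3.90 and a wall-associated receptor kinase-like gene (Niben101Scf10330g02003.1) by 3.87. All 6 were under 2 CPM in each mock polysome library.

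In the other direction, phosphoadenosine phosphosulfate reductase (Niben101Scf00327g00011.1), a later enzyme of sulfate assimilation, had 2.09, 2.32 and 2.99 CPM in heat polysome RNA and 22.3, 34.5 and 29.9 CPM in mock polysome RNA. It changed by -3.55 in polysome and -0.33 in total RNA, a difference of -3.22 (SE 0.34, adjusted p = 0.00012). An RNA helicase A gene (Niben101Scf03550g00021.1, -3.22), a gene with a dynein light chain annotation (Niben101Scf01395g05008.1, -3.20) and a U3 snoRNP-type gene (Niben101Scf03809g00009.1, -3.01) fell in polysome RNA and rose in total RNA. ARF 5 (Niben101Scf01869g00012.1), an auxin response factor of vein formation in Arabidopsis, changed by -4.18 in polysome and -1.12 in total RNA. A subunit shared by the nuclear RNA polymerases (Niben101Scf03861g02041.1) rose in both, by 2.93 in polysome and 5.90 in total RNA.

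The length of the annotated homolog, given for 8369 of the genes tested (24.4%), moved with this difference. Among genes with a homolog of 1000 or more amino acids, 26.4% had a heat effect lower in polysome RNA and 1.44% higher, and the median change was -0.26 in polysome and 0.38 in total RNA. Among homologs of 150 to under 300 amino acids, 3.43% were lower and 18.2% higher, with medians of 0.19 in polysome and -0.15 in total RNA. Below 150 amino acids the order turned slightly, at 5.02% lower and 12.7% higher. The median difference was -0.65 for the longest homologs and 0.37 for those of 150 to under 300, and without mock total libraries 6 and 7 these were -0.61 and 0.27. This is a description of annotation text, which is missing for most genes, and it was not tested.

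**Figure D5:**
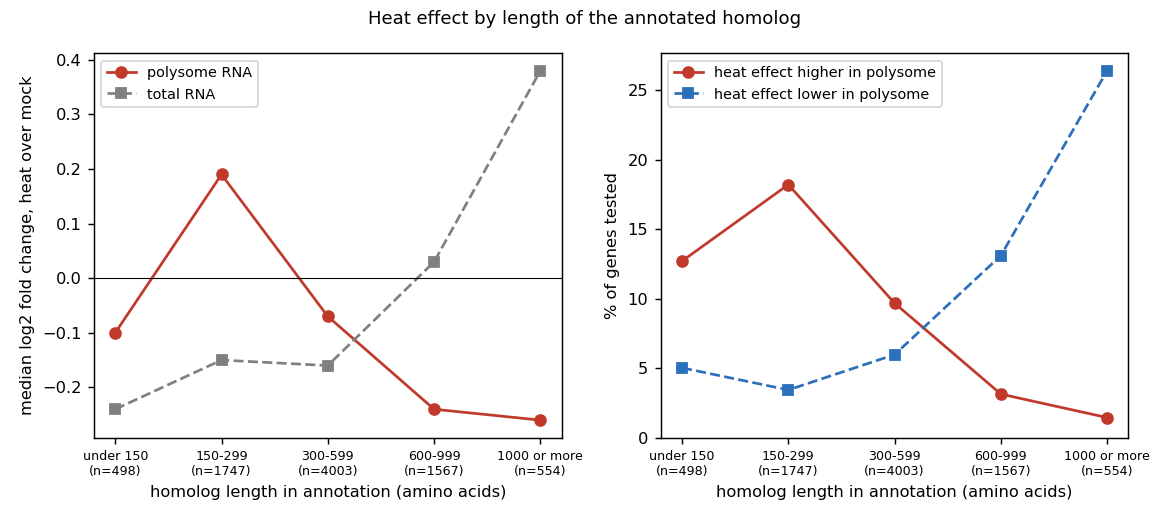
Left, median log2 fold change of heat over mock in polysome and total RNA by homolog length class; right, percent of genes tested whose heat effect was higher or lower in polysome than in total RNA (number of genes under each class). The share lower in polysome RNA is 5.02% below 150 amino acids and 26.4% at 1000 or more, while the polysome median is 0.19 from 150 to under 300 amino acids and -0.26 at 1000 or more.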

How the data were processed

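Leaf polysome RNA and total RNA were sequenced after heat or mock treatment. Samples were grouped by title. Tools listed in the submitters' processing notes are HTSeq 0.11.0, HISAT2, DESeq and cutadapt. For the build: not given in the sources used here. The deposited counts per gene are whole numbers under a raw data heading, per the file headers. The lowest count was 1 in every library, as if 1 had been added. Gene names are homology texts of the table; strand use is not stated, so antisense overlaps are unresolved. Of the table, 2 lines were emptied and are not analysed here.

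In R 4.3.3, edgeR 4.0.16 fitted all 12 libraries by quasi-likelihood, each of the 4 groups with its own mean, after filterByExpr (minimum count 10) and TMM. Benjamini-Hochberg adjusted p-values were called at 0.05. The procedure was tested on simulated data in which few genes changed, so that test cannot show whether the assumption of TMM holds here. Shares are percent of library counts. CPM is not per transcript length, so a rank by CPM is one of reads, not molecules. The SE is the log2 change divided by the square root of F. Where a whole group lay at the lowest count, the fold is a bound that puts that group at 3 counts in sum. Groups with 1 to 3 further reads have a ratio and its 95% counting interval instead. Intervals and bounds cover counting error only, and p-values measure the spread between these libraries. For naming, the chaperone lists left out the BAG, Hop, Aha1, Fes1 and ER folding genes, which the 568 chaperone list genes include. Named genes are the 12 largest rises and falls outside the chaperone lists and the 6 largest differences from total RNA each way. The rest were picked from the genes highest in CPM, from members of counts of 5 or fewer, and from each list described. From a list, candidates were the member with the lowest adjusted p per direction and the one highest in CPM. Not every candidate is named. Members and lists were chosen with earlier results of these data known. Alternatives were RLE size factors, DESeq2 1.42.0, other filters, 1 subtracted from counts, the polysome libraries alone, left-out libraries and, added after seeing the data, library totals.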

Additional observations from a re-analysis of the deposited data

Results flagged for a closer look

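For each result here the heat effect in polysome RNA differed from that in total RNA, tested as an interaction in edgeR's quasi-likelihood fit. Over all genes tested, 3502 had a higher and 2891 a lower effect in polysome RNA. Of 98 named genes, 37 were called, 22 of them also under every other setting tried, which include leaving out mock total libraries 6 and 7, and 30 with library totals alone. The 6 largest differences each way were named because they were called, so they count among the 37 by selection. They were named only if also called without mock total libraries 6 and 7, so they passed that setting by selection too. Values are polysome minus total log2 changes.

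Higher in polysome RNA were GTPase Der (4.42), alcohol dehydrogenase 2 (4.27), the pyridoxal biosynthesis lyase (4.05), sulfate adenylyltransferase (4.01), calcineurin B-like protein 10 (3.90), the wall-associated kinase-like gene (3.87) and the catalase Niben101Ctg10591g00003.1 (2.73). So were the phosphosulfolactate synthase (2.05), FAM32A-like (1.97), splicing factor 12 (1.94), CONSTANS-LIKE 4 (1.59), eIF5A (1.26), antenna genes 50 (1.24) and 40 (1.19), and histone H2B (1.16). Smaller values were those of DnaJ (0.91), the dehydrin (0.90), histone H1 (0.83), L18a-like (0.82), calreticulin-3 (0.82) and IAA7 (0.76).

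Lower in polysome RNA were phosphoadenosine phosphosulfate reductase (-3.22), RNA helicase A (-3.22), the dynein light chain annotation (-3.20), ARF 5 (-3.06), the U3 snoRNP-type gene (-3.01), the RNA polymerase subunit (-2.96) and phospholipase C 2 (-2.65). So were the kinesin-related gene Niben101Scf05711g04009.1 (-1.62), the phloem-specific gene (-1.32), the HSP70 gene Niben101Scf04126g01011.1 (-1.28), ARF 3 (-1.26), L37a (-1.02), the 60 kDa chaperonin (-0.88), elongation factor G 1 (-0.80), HtpG (-0.77) and the alanine enzyme (-0.66). Groups of 3 libraries are too small for a test of single outlying samples.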

How the results depend on the processing

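With library totals alone, 5921 genes rose, 14908 fell, 1678 were higher in polysome than in total RNA, and 253 ribosomal protein genes fell. Requiring a mean of at least 5 CPM left 5837 rises and 6126 falls of fewer genes tested. Without mock total libraries 6 and 7, which leaves 1 library in that group, assumed to vary like the others, 1374 genes were higher and 1060 lower in polysome RNA. Left out 1 at a time, the polysome libraries gave 2328 to 3839 higher genes, fewest without heat library 5, and 33 to 63 histone falls, fewest without mock library 2 and most without mock library 3. On TMM-scaled CPM, heat minus mock shares in percentage points were 9.33 for small heat shock proteins, 0.983 for HSP70, 0.762 for HSP90, 9.53 for antenna proteins and, with the sign reversed, 0.119 for Rubisco small chains. Of the counts of calls per list, in each direction, 220 moved by over 1.5 times and 1992 did not, over all lists and settings. For ribosomal protein falls the range was 102 to 182 with 1 polysome library left out. No paired analysis was possible because the heat polysome libraries are numbered 5 to 7 and the mock polysome libraries 2 to 4. Depth limits genes with few reads in mock libraries.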
